A study of Mus musculus with 20 samples.

Results

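The Dlk1-Dio3 locus is an imprinted cluster on mouse chromosome 12. Its 6 members examined here were chosen by name, as the 3 protein coding genes Dlk1, Rtl1 and Dio3 and the 3 long noncoding RNAs Meg3, Rian and Mirg, out of 55573 gene identifiers in the deposited count table. All 6 members had more than 3 counts in at least 1 library. The expression of each was read from RNA sequencing of mouse induced pluripotent stem cells (iPSCs) and of the embryoid bodies (EBs) made from them, in 20 libraries from 4 lines on days 0, 3, 5, 7 and 14, with 1 library per line and day. The study asked how loss of Nox4, an NADPH oxidase that produces hydrogen peroxide, affects differentiation of EB cells.

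The 4 lines were the wild type lines WT#1-4 and WT#20D-17 and, as knockouts, Nox4-/- #5-8 with Nox4-/- #5-23. By the published account, WT#1-4 and both knockout lines are clones from embryonic fibroblasts reprogrammed with viral Oct4, Sox2, Klf4 and c-Myc. The control line WT#1-4 thus carries those transgenes too, and no library was treated in any other way. WT#20D-17 appears in the labels as iPSCs but is not named in the published account, which therefore does not give its derivation. Day 0 is the iPSC stage and the later days are the EB culture. The last day is 14 in the sample titles, whereas the growth text of the labels gives day 10.

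In this cluster the protein coding genes are expressed from the paternal chromosome and the noncoding RNAs from the maternal one. Imprinting is set by a differentially methylated region between Dlk1 and Meg3 that is methylated on the paternal copy. The maternal transcripts form a long series on the same strand and carry many small nucleolar RNAs and microRNAs. The locus is known in stem cell work because silencing of Meg3 and its maternal neighbours marks a class of mouse iPSC lines. The counts used here do not tell the parental copies apart.

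By the GENCODE annotation of build GRCm38, the region from the start of Dlk1 to the end of Dio3 spans 828.3 kb and holds 118 annotated genes, of which 117 are in the table. Dlk1 (ENSMUSG00000040856) lies at chr12:109452823-109463336 on the plus strand. Meg3 (ENSMUSG00000021268) lies at chr12:109541001-109571726, Rian (ENSMUSG00000097451) at chr12:109603940-109661716 and Mirg (ENSMUSG00000097391) at chr12:109729764-109749460, all on the plus strand. Rtl1 (ENSMUSG00000085925) lies between Meg3 and Rian at chr12:109589193-109600330 on the minus strand. Dio3 (ENSMUSG00000075707) lies at the far end, at chr12:110279068-110281097 on the plus strand, with the noncoding Dio3os (ENSMUSG00000113581) upstream of it on the minus strand.

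**Figure D1:**
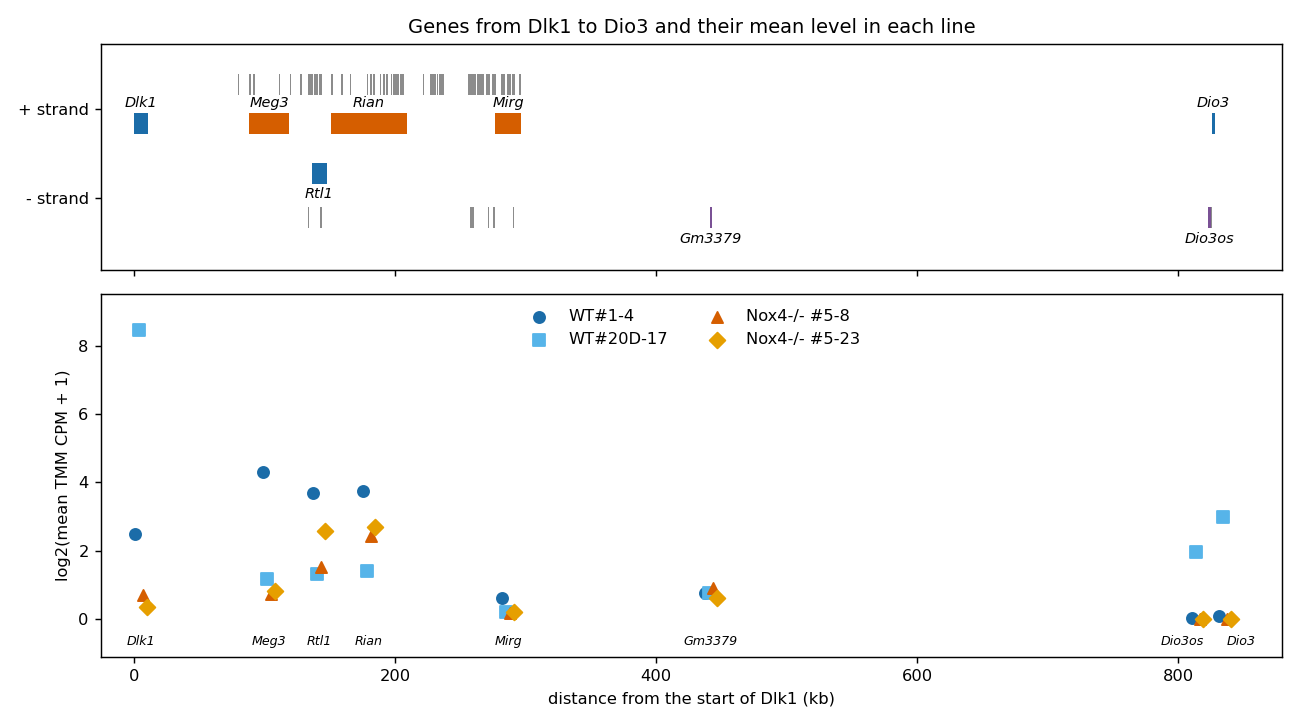
Upper panel, position of the members (blue, protein coding; orange, maternally expressed noncoding RNAs), of Dio3os and Gm3379 (purple) and of the miRNA, snoRNA and misc_RNA genes (grey) against the distance from the start of Dlk1 in kb, by strand. Lower panel, log2(mean TMM CPM + 1) of each line over its 5 libraries, with points shifted sideways so that they do not hide each other. WT#1-4 is highest at Meg3, Rtl1 and Rian, and WT#20D-17 at Dlk1, Dio3os and Dio3.

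The DNA before Dlk1 and Meg3 is shown because these members were the ones called between WT#1-4 and the knockout lines, and because the region between them sets the imprint. Each sequence is the 250 bases before the start in RefSeq (GRCm38.p6), read 5′ to 3′ on the plus strand, with CpG dinucleotides, the sites of DNA methylation, in capitals. The windows are chr12:109452573-109452822 for Dlk1 and chr12:109540746-109540995 for Meg3.

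Dlk1: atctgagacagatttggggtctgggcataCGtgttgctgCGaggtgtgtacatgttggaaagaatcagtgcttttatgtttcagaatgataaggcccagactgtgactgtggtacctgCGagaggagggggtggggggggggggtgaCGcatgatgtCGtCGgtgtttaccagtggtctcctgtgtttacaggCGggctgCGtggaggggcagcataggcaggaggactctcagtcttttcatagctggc

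Meg3: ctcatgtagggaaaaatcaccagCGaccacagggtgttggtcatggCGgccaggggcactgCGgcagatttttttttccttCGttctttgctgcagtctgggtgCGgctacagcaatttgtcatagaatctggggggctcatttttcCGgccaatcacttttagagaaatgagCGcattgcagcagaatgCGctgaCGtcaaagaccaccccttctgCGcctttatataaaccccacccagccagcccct

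Of the 32851 RefSeq windows of this length, the median held 6 CpG. The Meg3 window had 10 CpG (37.8% of windows had at least as many) and the Dlk1 window 8 (43% of windows). The Dio3 window, which reaches into the first exon of the GENCODE annotation and is not printed, had 21 (16.3% of windows). The letters TATAAA, searched on both strands, were in the Meg3 and Dio3 windows and in 12.4% of all windows. The letters TGCCGC, the core recognised by the imprint protein Zfp57 when it is methylated, were searched on both strands too. They were in the Meg3 window, where they lie on the strand opposite the printed one and appear as GCGGCA, and in 8.68% of all windows. RefSeq windows were matched for 5 of the 6 members, Rtl1 being the one without an entry. Meg3 had a second window, which held 0 CpG, as did the Rian window. The Mirg window, which lies within Mirg by the GENCODE annotation, had 10 CpG (37.8% of windows), as many as the first Meg3 window.

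The microRNAs are the other sequences of the locus that bear on how the members are read. RefSeq places 114 mature microRNAs from 61 genes between Dlk1 and Dio3. Of these, 11 from 6 genes lie within Rtl1 on the opposite strand, and 26 from 14 genes lie within Mirg on its own strand. The 8 printed here were chosen as examples from each host or from the strand opposite Rtl1, with the seed (bases 2 to 8) in capitals.

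miR-770-3p, within Meg3: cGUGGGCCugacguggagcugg

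miR-127-3p, opposite Rtl1: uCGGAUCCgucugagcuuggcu

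miR-431-5p, opposite Rtl1: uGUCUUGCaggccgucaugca

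miR-434-3p, opposite Rtl1: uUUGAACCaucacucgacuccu

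miR-136-5p, opposite Rtl1: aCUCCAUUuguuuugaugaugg

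miR-370-3p, within Rian: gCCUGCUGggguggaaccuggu

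miR-134-5p, within Mirg: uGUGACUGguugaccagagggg

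miR-410-3p, within Mirg: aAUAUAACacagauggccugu

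They have seeds that no other mature microRNA of the locus shares. In the locus 18 mature microRNAs share 9 seeds in pairs. All 94 genes of the table annotated as miRNA, snoRNA or misc_RNA between Dlk1 and Dio3 had 0 counts in the 20 libraries, which were made from polyadenylated RNA, so only the host transcripts were measured. The paper names a stranded library kit, but the strand setting of the counting is not given in the sources used here. It is therefore not known whether reads from Rtl1 were kept apart from those of its antisense transcript. The same holds for reads from the end of Meg3 and from Gm26906, which overlap by 1228 bases of exon on opposite strands.

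The libraries held between 20294968 and 27708023 expected counts. Levels are given as CPM, read counts scaled to library size with TMM factors, where 3 counts, the limit that a count of 0 allows, correspond to 0.109 to 0.157 CPM. Nox4 itself had 3 to 22 counts in the 5 WT#1-4 libraries, 56 to 203 in WT#20D-17, 0 to 2 in Nox4-/- #5-8 and 0 in all 5 Nox4-/- #5-23 libraries. The iPSC label was checked with pluripotency markers. On day 0 Nanog was at 383 CPM and Zfp42 at 41.6 CPM in WT#20D-17, whereas Nanog reached at most 1.03 CPM and Zfp42 was at 0 in all 15 libraries of WT#1-4, Nox4-/- #5-8 and Nox4-/- #5-23. Pou5f1, which encodes Oct4, was at 5760 CPM in WT#1-4 on day 0, 3080 in Nox4-/- #5-8, 4390 in Nox4-/- #5-23 and 1140 in WT#20D-17, and reads of the viral copy may be counted in it. Fgf4, which was not a transgene, was at 146 CPM in WT#1-4 on day 0, 135 in Nox4-/- #5-8, 174 in Nox4-/- #5-23 and 93.4 in WT#20D-17. Klf4 was also lowest in WT#20D-17 that day, whereas Esrrb, Tfcp2l1, Dppa4, Dppa5a, Utf1 and Tdgf1 were highest there. Sox2 was highest in Nox4-/- #5-23. The published account reports alkaline phosphatase activity and staining for pluripotency proteins in the lines it names. WT#20D-17 also stood apart in 12 markers of visceral endoderm and liver, whose summed level was 683 to 2310 CPM there and 3.91 to 9.82 CPM in the other 15 libraries. Results are therefore given for each wild type line separately.

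**Figure D2:**
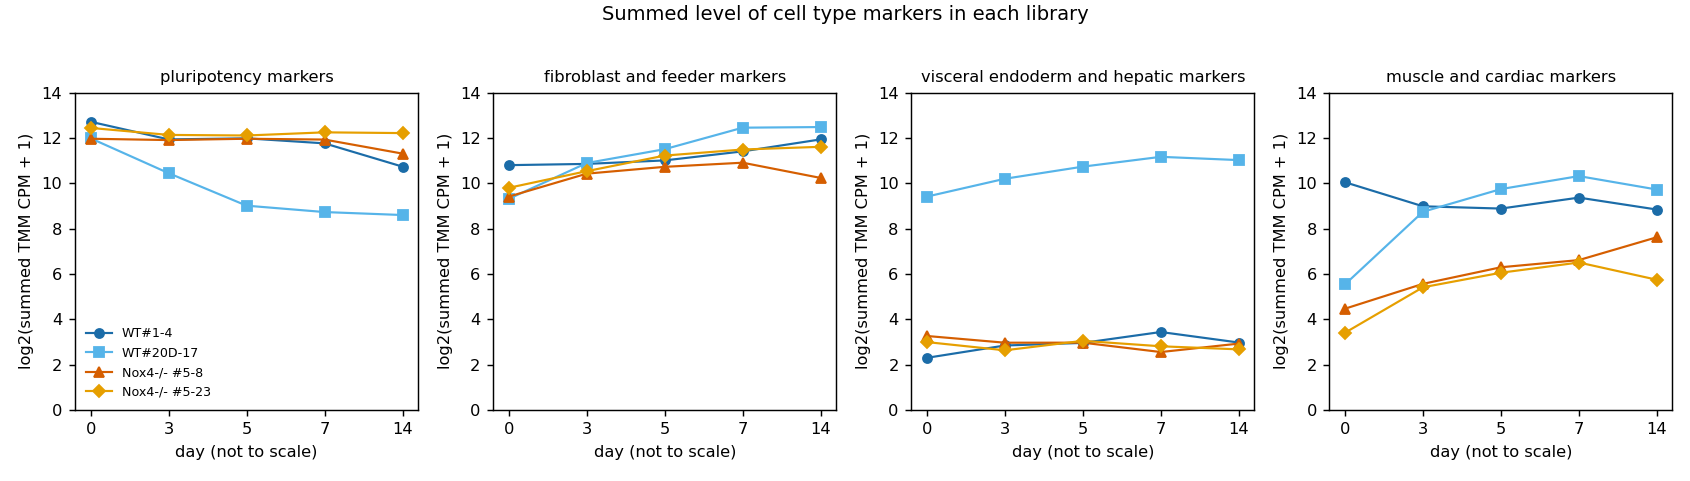
Summed level of 4 marker lists on a log2(summed TMM CPM + 1) scale against the day, 1 point per library and 1 line of points per cell line. From day 0 to day 14 pluripotency markers went from 4070 to 388 CPM in WT#20D-17 and from 6760 to 1710 CPM in WT#1-4. They went from 4020 to 2550 CPM in Nox4-/- #5-8 and from 5600 to 4780 CPM in Nox4-/- #5-23. Outside WT#20D-17 most of this sum was Pou5f1, in which reads of the viral copy may be counted. WT#20D-17 alone held visceral endoderm and hepatic markers at 683 CPM or more. Muscle and cardiac markers were at 459 to 1060 CPM in WT#1-4 and 9.59 to 196 CPM in the Nox4-/- lines. In WT#1-4 most of this sum was Des, at 380 to 1050 CPM.

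Meg3, the first of the maternal noncoding RNAs, separated WT#1-4 from every other line. In WT#1-4 it was at 16.9, 18.3, 16.4, 25.4 and 17.5 CPM on days 0, 3, 5, 7 and 14. In WT#20D-17 it was at 1.56, 0.689, 1.96, 1.2 and 0.892 CPM on the same days. Meg3 was thus at or below 1.96 CPM in this wild type line on every day.

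In Nox4-/- #5-8 Meg3 was at 2.24, 0.839, 0.268, 0.0482 and 0 CPM, the last 2 libraries holding 1 and 0 counts. In Nox4-/- #5-23 it was at 2.9, 0.183, 0.227, 0.4 and 0.182 CPM. The highest value in either knockout line was on day 0, when both lay above WT#20D-17. On days 5, 7 and 14 both lay below WT#20D-17, and none of their 10 libraries reached the lowest WT#1-4 library.

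Rian, the host of many box C/D small nucleolar RNAs downstream of Meg3, was at 12.3, 16.4, 11.9, 14.4 and 6.79 CPM in WT#1-4. In WT#20D-17 it stayed between 1.16 and 2.4 CPM. In Nox4-/- #5-8 it was at 1.76, 1.68, 4.74, 4.19 and 9.65 CPM, and in Nox4-/- #5-23 at 1.15, 0.275, 0.794, 1.47 and 23.9 CPM. On day 14 both knockout lines lay above WT#1-4, and on the 4 earlier days both lay below it.

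Mirg, which hosts the microRNA cluster farther downstream, was near the detection limit in every library. It had 3 to 19 counts in the WT#1-4 libraries, at 0.684, 0.755, 0.448, 0.607 and 0.149 CPM. It passed 3 counts in 1 library each of WT#20D-17 (0.4 CPM, day 7), Nox4-/- #5-8 (0.325 CPM, day 14) and Nox4-/- #5-23 (0.583 CPM, day 14). As for Rian, WT#1-4 was the highest line on days 0, 3, 5 and 7 and not on day 14.

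Among the paternally expressed genes, Dlk1 encodes a membrane protein related to Notch ligands that is known as an inhibitor of fat cell differentiation. In WT#20D-17 it was at 1.93, 17.3, 335, 645 and 748 CPM on days 0, 3, 5, 7 and 14, and held 98.8% of the summed CPM of the 6 members on day 14. In WT#1-4 it was at 2.77, 1.75, 1.34, 4.17 and 13.1 CPM. The wild type lines were close on day 0 and far apart from day 5 on.

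Dlk1 was lower in both knockout lines, at 0.719, 0.713, 0.382, 0.289 and 1.11 CPM in Nox4-/- #5-8 and at 0.557, 0.0458, 0.0756, 0.0444 and 0.656 CPM in Nox4-/- #5-23. The Nox4-/- #5-23 libraries of days 3, 5 and 7 had 1, 2 and 1 counts. Every wild type library lay above every knockout library, the lowest wild type value being 1.34 CPM (counting interval 0.97 to 1.86) and the highest knockout value 1.11 CPM (0.748 to 1.66), so that the gap between these 2 libraries is within counting error. Of all genes, 3.35% had no overlap between WT#1-4 and the knockout lines and 15.3% between WT#20D-17 and the knockout lines. The share for both wild type lines together was not computed.

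Rtl1, a gene derived from a retrotransposon with known roles in placenta and muscle, moved in opposite directions in 2 of the lines. In WT#1-4 it was at 28.9, 14.6, 10.1, 4.51 and 1.14 CPM, each day lower than the day before. In Nox4-/- #5-23 it was at 0.446, 0.275, 0.832, 2.62 and 20.7 CPM, most of its signal being on day 14. Nox4-/- #5-8 had 0.758 to 2.88 CPM and WT#20D-17 had 0.205 to 3.66 CPM, with no day far above the rest.

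Dio3 encodes the deiodinase that inactivates thyroid hormone. In WT#20D-17 it was at 0.041, 1.94, 7.06, 19.8 and 5.93 CPM, that is 1, 45, 162, 445 and 113 counts. In WT#1-4 it had 0, 0, 6, 0 and 2 counts. In the 10 knockout libraries it had 1 count in all. Its neighbour Dio3os followed in WT#20D-17, at 0.041, 0.474, 3.92, 7.24 and 3.04 CPM, and was at or below 0.0496 CPM in the other 15 libraries.

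**Figure D3:**
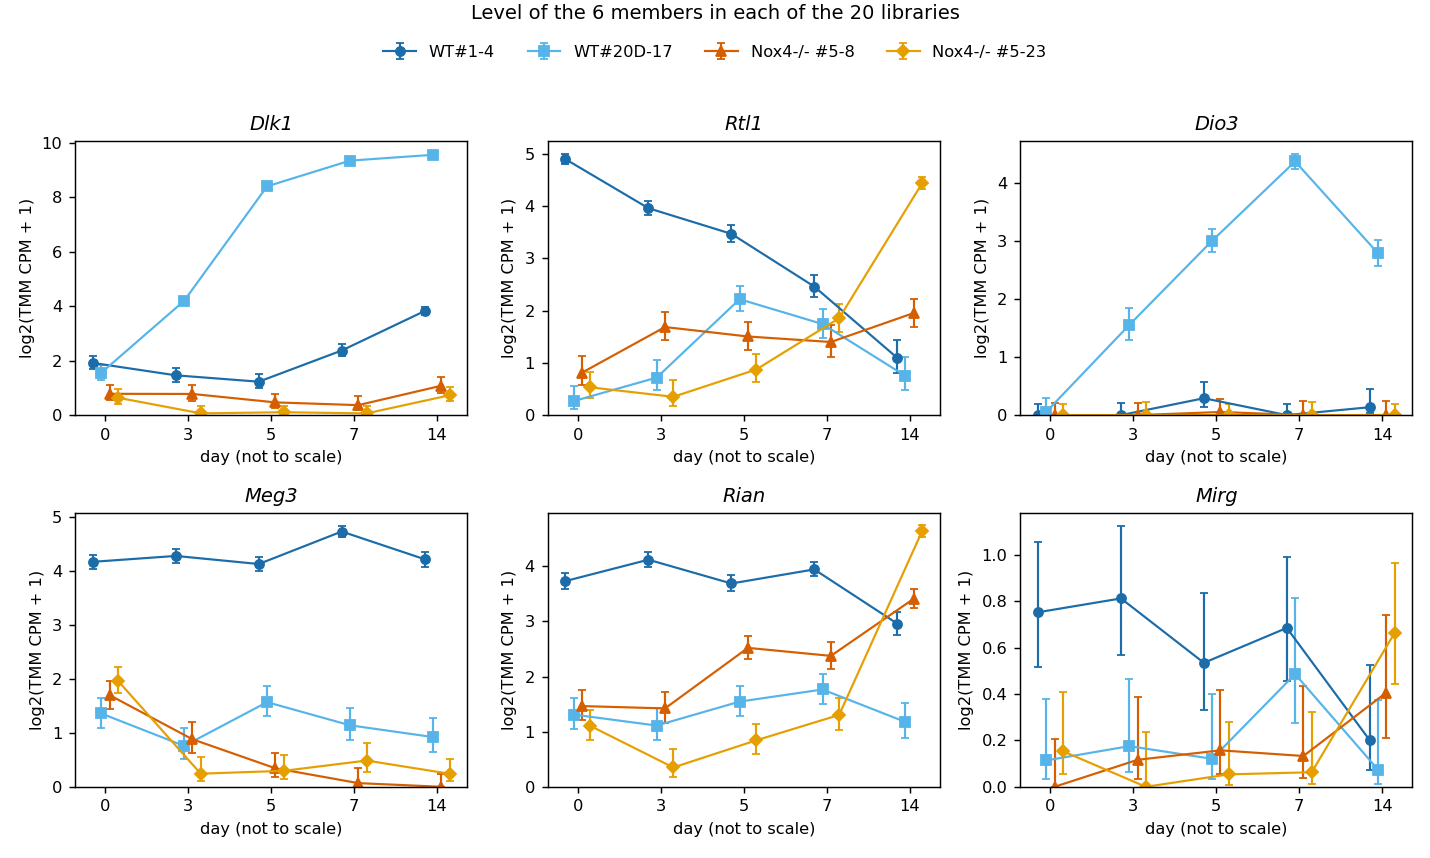
Level of each member on a log2(TMM CPM + 1) scale against the day, with 1 point per library, 1 colour per line and bars for the 95% Wilson interval of the count (counting error only). The upper panels hold the paternally expressed genes and the lower panels the maternally expressed RNAs, with a separate vertical scale in each panel. Meg3 in WT#1-4 (16.4 to 25.4 CPM) lies above all 15 other libraries (0 to 2.9 CPM), and Rtl1 and Rian in Nox4-/- #5-23 rise on day 14.

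The order of the lines by mean level differed from member to member. For Meg3 it was WT#1-4 (18.9 ± 3.73 CPM, SD over 5 days), WT#20D-17 (1.26 ± 0.511), Nox4-/- #5-23 (0.778 ± 1.19) and Nox4-/- #5-8 (0.678 ± 0.932), and the ranges of the last 3 overlapped. For Dlk1 it was WT#20D-17 (350 ± 346 CPM), WT#1-4 (4.62 ± 4.86), Nox4-/- #5-8 (0.643 ± 0.326) and Nox4-/- #5-23 (0.276 ± 0.304), and among neighbours in this order the ranges of WT#1-4 and Nox4-/- #5-8 did not overlap while the others did. Rian followed as WT#1-4 (12.4 ± 3.61 CPM), Nox4-/- #5-23 (5.52 ± 10.3), Nox4-/- #5-8 (4.4 ± 3.24) and WT#20D-17 (1.64 ± 0.512), where neighbouring ranges overlapped throughout. For Rtl1 the means were 11.9 ± 10.9 CPM in WT#1-4, 4.98 ± 8.86 in Nox4-/- #5-23, 1.87 ± 0.779 in Nox4-/- #5-8 and 1.51 ± 1.46 in WT#20D-17, all with overlapping ranges.

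Per kb of exon, the members can be set against each other within a line, but only roughly. The length used joins the exons of all annotated transcripts. It was 6358 bases for Rtl1 with 1 transcript, 18089 for Meg3 with 11 and 18234 for Rian with 20. The order of the members depends on this length, and reads from the antisense transcript may be counted in Rtl1. In WT#1-4 the mean level was 1.86 CPM per kb for Rtl1, 1.04 for Meg3, 0.818 for Dlk1, 0.68 for Rian, 0.0724 for Mirg and 0.0318 for Dio3. In WT#20D-17 Dlk1 led with 61.8 CPM per kb and Dio3 followed with 3.42, while the other 4 members were at or below 0.237. In both knockout lines Rtl1 led, with 0.293 CPM per kb in Nox4-/- #5-8 and 0.784 in Nox4-/- #5-23, and Rian followed with 0.241 and 0.303.

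The maternal RNAs did not keep a fixed proportion to each other. The ratio of Rian to Meg3 was 0.388 to 0.9 in the 5 WT#1-4 libraries and 0.947 to 2 in WT#20D-17. In Nox4-/- #5-23 it was 0.397 on day 0 and 131 on day 14, where Rian had 656 counts and Meg3 had 5. In Nox4-/- #5-8 it was 0.786 on day 0 and 17.7 on day 5, and on days 7 and 14 Meg3 had too few counts for a ratio. In both knockout lines Meg3 was thus lower and Rian higher on the later days than on day 0, apart from Rian on day 3 in both lines and on day 5 in Nox4-/- #5-23.

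**Figure D4:**
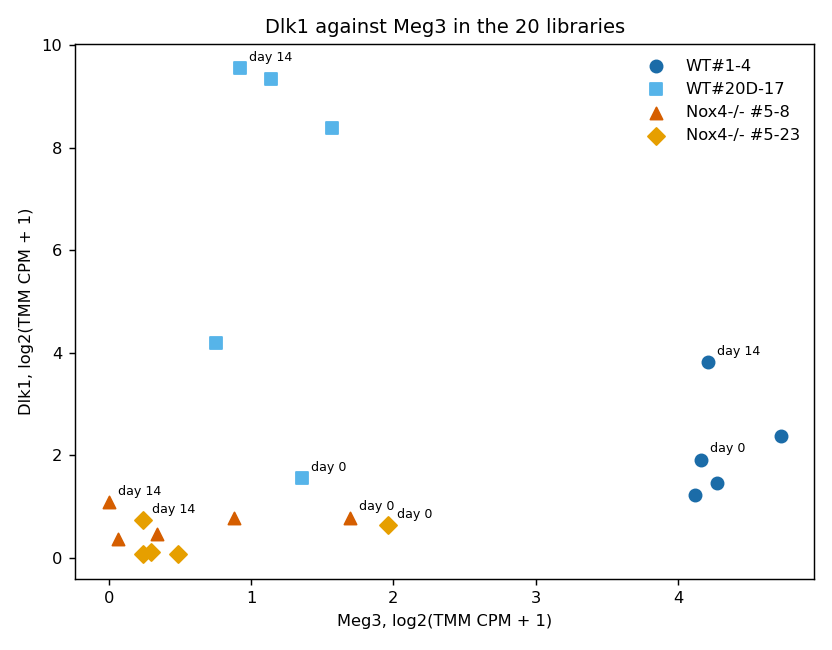
Dlk1 against Meg3 in each of the 20 libraries, both on a log2(TMM CPM + 1) scale, with colour and shape for the line and days 0 and 14 labelled. The WT#1-4 libraries lie to the right (Meg3 at 16.4 CPM or more), those of WT#20D-17 rise at low Meg3 to 748 CPM of Dlk1, and those of the Nox4-/- lines lie near the origin.

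The question of genotype was first addressed with WT#1-4 against both knockout lines, the lines named in the publication. Dlk1 and Meg3 were lower in the Nox4-/- lines and the other 4 members were not past the threshold (edgeR's exact test over 33860 genes, Benjamini-Hochberg FDR under 0.01), so that 2 of 6 members were called where 5.63% of all genes were. Meg3 was lower by a log2 fold change of -4.68 (SE 0.713, FDR 7.35e-08), from 2367 counts in 5 libraries to 186 in 10, a ratio of 24.7 with a counting interval of 21.3 to 28.9. Dlk1 was lower by -3.31 (SE 0.625, FDR 1.13e-05), from 527 counts to 112, a ratio of 9.14 with an interval of 7.44 to 11.3. For both, the groups did not overlap, which held for 3.35% of all genes. In bulk RNA, fewer expressing cells and less RNA per cell cannot be told apart.

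Of the remaining members, Rtl1, Rian and Mirg depended on day 14, and Dio3 was called neither with nor without it (FDR 0.778 without). Over all days the log2 fold changes were -1.79 for Rtl1 (FDR 0.17), -1.32 for Rian (FDR 0.312), -1.87 for Mirg (FDR 0.0636) and -2.93 for Dio3 (FDR 0.314). WT#1-4 was above both knockout lines on 4 of the 5 days for Rtl1, Rian and Mirg, and below both on day 14 for each. Without the day 14 libraries the same exact test gave -3.43 for Rtl1 (FDR 8.16e-08), -2.77 for Rian (FDR 4.4e-06) and -3.21 for Mirg (FDR 9.32e-11), so that 5 of 6 members were called in a fit that called 1857 genes, against 1905 with all days. With the day as a replicate block, in edgeR's quasi-likelihood test, these 3 were also called, at -2.82 (FDR 0.00102), -2.42 (FDR 9.15e-05) and -2.49 (FDR 0.00539), in a fit that called 2724 genes. Rtl1 was called at -2.68 (FDR 0.00319) when Nox4-/- #5-23 was left out.

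Fibroblast and muscle markers moved with this comparison. Of 14 fibroblast and feeder markers 8 were lower in the knockout lines and 0 higher, where 5.63% of all genes were called. Their median log2 fold change was -2.2 against 0 over all genes. Col1a1 lay between 14.1 and 36.3 CPM in WT#1-4 and between 0.255 and 7.77 CPM in the knockout lines, and Prrx1, a mesenchymal transcription factor, between 16 and 29.9 CPM against 1.01 to 3.46 CPM. The summed level of the list was 1790 to 3940 CPM in WT#1-4, 683 to 1930 in Nox4-/- #5-8 and 894 to 3140 in Nox4-/- #5-23, and most of it was Fn1. Of 12 muscle and cardiac markers 5 were lower and 0 higher, of 11 neural markers 2 were lower and 1 higher, and of 12 pluripotency markers Utf1 was lower (-8.62) and Sox2, also a reprogramming transgene, higher (3.27). The part of these cell types, and of feeder cells on day 0, in the levels of the members was not tested.

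Against WT#20D-17 the same knockout libraries differed in other members. Dlk1 and Dio3 were lower in the Nox4-/- lines, 2 of 6 members, where 25.8% of all genes were called. Dlk1 was lower by a log2 fold change of -9.55 (SE 0.959, FDR 1.58e-19), a ratio of 713 with a counting interval of 592 to 866. Dio3 was lower by -9.54 (SE 0.954, FDR 2.74e-14), from 766 counts to 1, a ratio of 1660 with a counting interval of 296 to 65500. Both groups were free of overlap, as for 15.3% of all genes. Meg3 differed by -0.78 (FDR 0.531), Rtl1 by 1.18, Rian by 1.59 and Mirg by -0.09, none of them called. Without day 0, when Meg3 was highest in the knockout lines, Meg3 was called at -2.05 (FDR 0.00501).

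This comparison, in which 25.8% of all genes were called, also held the widest differences in cell type markers. Of the 12 visceral endoderm and hepatic markers 10 were lower in the knockout lines, among them Ttr, a carrier of thyroid hormone, at -14.42 and Afp at -13.03. Of the 12 pluripotency markers 8 were lower and 3 higher, and of the 14 fibroblast markers 8 were lower. Of the 12 muscle and cardiac markers 8 were lower and 1 higher (median -6.03), and their summed level in WT#20D-17 went from 45.6 CPM on day 0 to 848 CPM on day 14. Of the 11 neural markers 3 were lower and 6 higher. Afp rose in WT#20D-17 from 1.15 CPM on day 0 to 667 CPM on day 14 and Col1a1 from 2.91 to 951 CPM, over the days on which Dlk1 rose. Their part in the level of Dlk1 and Dio3 was not tested.

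The wild type lines also differed from each other. Going from WT#1-4 to WT#20D-17, Dlk1 was higher by a log2 fold change of 6.21 and Dio3 by 6.64, while Meg3 was lower by -3.92, Rian by -2.93 and Rtl1 by -3 (FDR 0.0046), which made 5 of 6 members called against 17.7% of all genes. Mirg was at -1.8 (FDR 0.037) and not called. The protein coding genes at the outer ends of the cluster were thus higher in WT#20D-17 and Meg3, Rtl1 and Rian between them lower. Meg3 and Rian did not overlap between these lines, as for 17% of all genes. With the day as a replicate block 3 members were called, Dlk1 (5.22, FDR 0.0143) and Rtl1 (-2.65, FDR 0.068) being lost. Rtl1 was also lost without day 0 (-2.09, FDR 0.0441), day 3 (-2.73, FDR 0.0533) or day 7 (-3.42, FDR 0.0102).

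The knockout lines did not differ in any member past the threshold, where 2.19% of all genes did, and the groups overlapped for all 6. From Nox4-/- #5-8 to Nox4-/- #5-23 the log2 fold changes ran from -1.18 for Dlk1 (SE 0.716, FDR 0.726) to 1.42 for Rtl1 (SE 0.943, FDR 0.816) among the members other than Dio3, and on day 14 alone no test was possible with 1 library each.

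**Figure D5:**
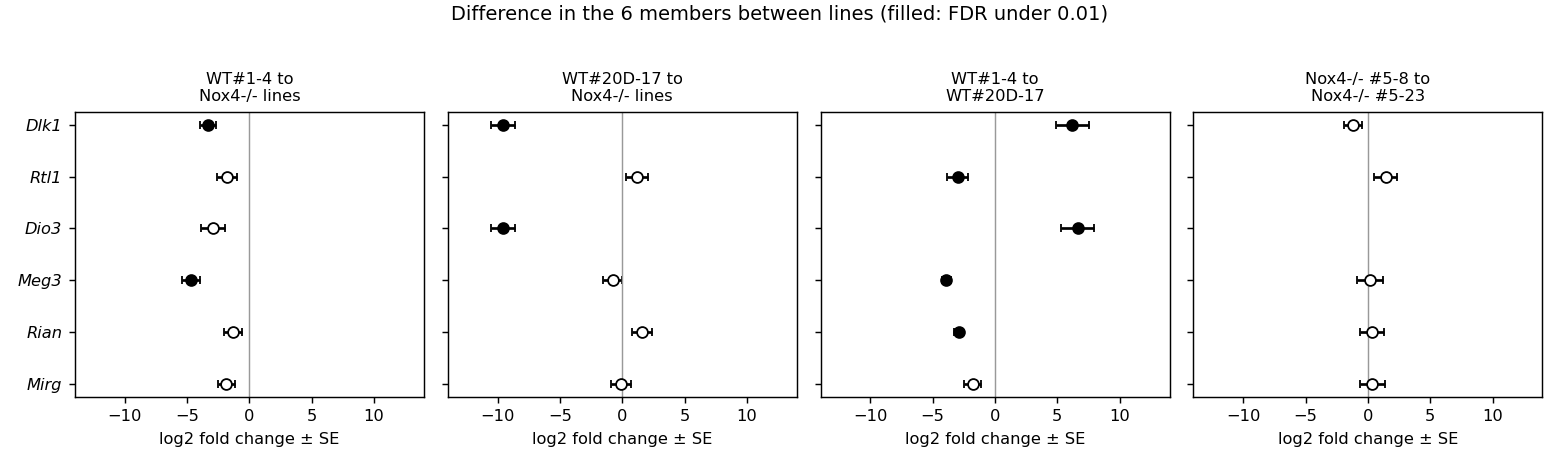
Log2 fold change of each member in the 4 comparisons between lines (second group over first, bars 1 SE from the quasi-likelihood fit of the same libraries), with filled points for an FDR under 0.01 in edgeR's exact test. Dio3 is left out of the last panel, where it had 1 count in all. Dlk1 is filled in the first 3 panels and Meg3 in those for WT#1-4, and no point is filled between the Nox4-/- lines.

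Genotype was also tested between lines, since the 5 days of a line come from the same cells. The p-values above measure the spread between days and, in the pooled knockout group, between its 2 lines, but not between wild type lines. With the counts summed over the days of each line, 2 wild type against 2 knockout lines, no member was called and 0% of 20229 genes were (edgeR's quasi-likelihood test). At an unadjusted p under 0.05 there were 1628 genes, and DESeq2 called 826. Dlk1 had the largest difference, at -8.45 (FDR 0.604), and was called by DESeq2 at -8.46 (FDR 6.41e-05), which also called Dio3 (FDR 0.00297), and without WT#1-4 at -9.39 (FDR 0.00973), a fit with 1 wild type line that is assumed to vary like the knockout lines. It was not called without WT#20D-17 (-3.15, FDR 0.199), Nox4-/- #5-8 (-9.03, FDR 1) or Nox4-/- #5-23 (-7.97, FDR 1). Meg3 was at -3.7 (FDR 0.605), Mirg at -1.25, Rtl1 at -0.92 and Rian at -0.45, and Dio3 was removed by the expression filter (FDR 0.742 when all genes with a value above 0 were kept).

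The change over the days was tested with the line as a factor, in all 20 libraries. Dio3 was the one member called (FDR 0.00757, where 16.9% of genes were called), and on day 14 against day 0 it was again the one called, at 6.5 (SE 1.41, FDR 0.00273, where 27.9% were called). This rests on WT#20D-17, which held 766 counts of Dio3 against 8 in WT#1-4 and 1 in the knockout lines. Dio3 could not be tested without that line, and its call over all days was lost without WT#1-4 (FDR 0.0133), Nox4-/- #5-8 (FDR 0.0691) or Nox4-/- #5-23 (FDR 0.0212). Its call on day 14 was lost without Nox4-/- #5-8 (FDR 0.0194). On day 14 Meg3 was at -2.44 (FDR 0.0252), Rian at 2.45 (FDR 0.0383), Dlk1 at 2.34, Rtl1 at 1.89 and Mirg at 1.37, none past the threshold. DESeq2 called Meg3 at -2.69 (FDR 0.00234) and Rian at 2.49 (FDR 0.00373) on day 14 and did not call Dio3 (2.28, FDR 0.458).

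Since the lines moved in different directions, a slope on log2(day + 1) was fitted for each line, a test chosen after the values had been seen. The slopes did not differ between lines past the threshold for any member, where 4.85% of genes were called, although Rtl1 (FDR 0.0128), Meg3 (FDR 0.0155) and Dlk1 (FDR 0.0285) were close to it. With the day on a linear scale, on which 1734 of 19240 genes were called in place of 933, 3 members were called, Rtl1 (FDR 0.00204), Meg3 (FDR 0.00763) and Rian (FDR 0.00818).

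Within WT#20D-17 Dlk1 rose by a fitted log2 change of 9.73 from day 0 to day 14 (SE 1.76, FDR 0.000703, where 17.2% of genes were called) and Dio3 by 8.03 (FDR 0.0149, not called). Within WT#1-4 no member was called, where 8.77% of genes were, Rtl1 having a fitted change of -4.06 (SE 1.42, FDR 0.0484). Within Nox4-/- #5-8 Meg3 fell by 5.48 on the log2 scale (SE 1.02, FDR 0.0029, where 4.52% were called). Within Nox4-/- #5-23 Meg3 fell by 4.09 (SE 0.831, FDR 0.00293) and Rtl1 rose by 5.94 (SE 1.36, FDR 0.00595), where 9.47% were called. By the published methods, iPSCs were kept on feeder fibroblasts. Of the 14 fibroblast and feeder markers, 3 fell and 1 rose past the threshold within Nox4-/- #5-23, and 0 were called within Nox4-/- #5-8. The part of feeder cells on day 0 in the fall of Meg3 was not tested.

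Each of these calls of members rests on few libraries. Dlk1 in WT#20D-17 was lost without day 0 (FDR 0.0974). Meg3 in Nox4-/- #5-8 was lost without day 14 (FDR 0.0417). Meg3 in Nox4-/- #5-23 had a slope of 0.07 without day 0 (FDR 0.997) in place of -1.05, and was lost without day 14 (FDR 0.0174). Rtl1 in that line was lost without day 14 (FDR 0.266), day 3 (FDR 0.0116) or day 7 (FDR 0.0106).

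Of 17 neighbours on either side of the cluster, 1 was called in WT#1-4 against the knockout lines, a share near the 5.63% of all genes. It was Wdr25, which was higher by 1.25 (FDR 0.00526). The neighbours had a median log2 fold change of 0.07 against 0 over all genes, and -2.4 for the members. Against WT#20D-17 5 of the 17 neighbours were called, 1 lower and 4 higher, a share near the 25.8% of all genes, and their median was 0.05 against -0.44 for the members. Among them were Wdr25 (2.89), Begain (2.82) and Zfp839 (1.22). Between Dlk1 and Dio3, 17 further genes are neither members nor small RNA genes, and 3 of these passed 3 counts in a library. Apart from Dio3os these included the pseudogene Gm3379, which had a mean of 0.702 CPM, with log2 fold changes of 0 and -0.02 in the comparisons with the knockout lines.

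Of 18 genes listed for imprint maintenance, 3 were called in WT#1-4 against the knockout lines. The list mixes enzymes of DNA methylation and demethylation, proteins that bind imprint regions and Polycomb proteins. Of all genes 5.63% were called there. Zfp57, the zinc finger protein that binds methylated imprint regions, was higher by 1.49 (FDR 5.12e-09), at 63.1 to 132 CPM in WT#1-4 and 172 to 350 CPM in the knockout libraries. Jarid2, a partner of Polycomb, was lower by -0.74 (FDR 0.00156), and Aff3, which binds imprint control regions, was lower by -2.22 (FDR 0.00129). Against WT#20D-17 9 were called, 7 lower and 2 higher, where 25.8% of all genes were called. Dnmt3l, a cofactor of de novo methylation, was lower by -11.46, at 13 to 136 CPM in WT#20D-17 and at or below 0.0382 CPM in the knockout lines. Dnmt3b was lower by -5.74 and Dppa3, which protects maternal methylation after fertilisation, by -9.42. In WT#1-4 Dnmt3l was at or below 0.076 CPM and Dppa3 at 0, so that WT#1-4 was like the knockout lines in both. Whether any of these genes bears on the levels of the members was not tested.

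Of 13 paralogs of the protein coding members 4 were lower in the knockout lines than in WT#1-4 and 0 higher, where 5.63% of all genes were called, led by the retrotransposon-derived Rtl8a (-7.49), Rtl3 (-4.47) and Rtl8c (-2.29). Against WT#20D-17 4 of the 13 were lower, a share near the 25.8% of all genes, led by the imprinted Peg10 (-7.15), Rtl8a (-6.88) and Rtl4 (-6.08). Of 15 Notch receptors and targets 1 was called against WT#1-4 (Notch4, 1.82) and 7 against WT#20D-17, where 25.8% of all genes were called. Of these 7, 5 were lower, among them Dll4 (-6.02), Hes5 (-4.75) and Notch3 (-2.94), and 2 higher, among them Notch4 (2.49). Of 8 genes of thyroid hormone handling, Thrb, a nuclear receptor of the hormone, was lower by -0.99 than in WT#1-4 (FDR 0.00127) and higher by 4.14 than in WT#20D-17 (FDR 5.79e-20). Thrb was at 10.7 to 20.6 CPM in WT#1-4, 3.8 to 9.59 CPM in the knockout lines and 0.164 to 0.945 CPM in WT#20D-17, the line with Dio3. These comparisons share the knockout libraries.

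The genes outside the cluster most like Meg3 and Dlk1 were ranked over the 20 libraries, by Pearson's r of log2(CPM + 1) among 14526 genes more than 2 Mb away or on another chromosome. For Meg3 they were Ass1 (r = 0.95), 9330188P03Rik (0.941), Gfral (0.939), 1700048O20Rik (0.933) and Gm5424 (0.931). Ass1, an enzyme of arginine synthesis, was at 1290 to 2230 CPM in WT#1-4 and at 44.9 to 180 CPM in the other 15 libraries. For Dlk1 they were Tnnt2 (0.983), Flvcr2 (0.979), Gab2 (0.976), Pappa (0.971) and Actc1 (0.971). Tnnt2 and Actc1 are genes of the cardiac sarcomere, and both were highest in WT#20D-17, at up to 23.5 and 62.3 CPM. Within the cluster, r with Dlk1 was 0.94 for Dio3 and between -0.153 and 0.0656 for the other 4 members. With Meg3, r was 0.604 for Mirg, 0.538 for Rian, 0.464 for Rtl1 and -0.13 for Dio3. The 5 libraries of a line share their cells, so these values describe the 4 lines as much as the 20 libraries.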

How the data were processed

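RNA sequencing of 4 lines on 5 days gave 20 libraries, grouped by the labels. Per the labels and the published methods, the authors aligned reads with STAR 2.6.0c to GRCm38 and deposited RSEM 1.3.1 expected counts per gene. Values were rounded to whole counts, 9.92% of them having had decimals. Lines were compared with the exact test of edgeR 4.0.16 (R 4.3.3) after TMM scaling, over the 33860 genes with a value above 0, and called at a Benjamini-Hochberg FDR under 0.01. Standard errors were the absolute log2 fold change over the square root of the quasi-likelihood F statistic, and need not match the exact test. The quasi-likelihood fit was also used, after edgeR's expression filter, for the line as unit and for the days with the line as a factor (upper quartile scaling). Trends within lines were added after the data were seen. All tests were two-sided. Functions were tested on simulated data, where the test of a difference in trend missed many changes. Alternatives were DESeq2 1.42.0, other scaling, filters and thresholds, a day block and leaving out each day or line.

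The members and gene lists were chosen with earlier results of these data known. From each list, the called genes with the largest changes, up to 3, were named, with other genes of the locus at a mean of at least 0.5 CPM and the 5 genes most like Meg3 and Dlk1 at a mean of at least 1 CPM. A gene named beyond these, such as Fn1 or Nanog, was chosen after its values were seen. Same-day libraries of different lines deviated together with a median r of 0.303 (-0.24 to 0.814 over 30 pairs of libraries, 14579 genes), against -0.102 for different days, and what the libraries of a day share was not tested. No pair of libraries held identical values. Wilson intervals (95%) and count ratios cover counting error only.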

Additional observations from a re-analysis of the deposited data

Results flagged for a closer look

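In each of 22 groups of 5 days, by member and line, the highest and the lowest library were compared with the nearest other library by Dixon's ratio (critical value 0.71). By this rule 7 libraries stood out. The rate of about 1 in 20 groups by chance holds for values from 1 normal distribution. Different days of a course are not such values, so the 7 cannot be set against that rate. Of these, 3 were in Nox4-/- #5-23 on day 14, where Rtl1 was at 20.7 CPM (nearest 2.62), Rian at 23.9 CPM (nearest 1.47) and Mirg at 0.583 CPM (nearest 0.112). In the same line Meg3 stood out on day 0, at 2.9 CPM (nearest 0.4). In WT#1-4 Dlk1 stood out on day 14, at 13.1 CPM (nearest 4.17), and Meg3 on day 7, at 25.4 CPM (nearest 18.3). In WT#20D-17 Mirg stood out on day 7, at 0.4 CPM (nearest 0.129). With 1 library per line and day, a change on that day and a difference of that library cannot be told apart.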

How the results depend on the processing

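The calls in WT#1-4 against the Nox4-/- lines rose from 2 to 5 members with the day as a replicate block (2 to 5 when leaving out a day or line). WT#20D-17 against the Nox4-/- lines gave 1 member with the expression filter, which left 4 members to test (2 to 3 when leaving out), and the wild type lines 3 with the day block (4 to 5). With the line as unit DESeq2 called 2 (0 to 1). The change over the days gave 0 without the replicate block, 0 in the 15 libraries of the named lines and 0 by DESeq2 (0 to 0), and day 14 gave 0, 0 and 2 (0 to 1). On a linear day scale the trend difference gave 3, WT#1-4 gave 1 and WT#20D-17 gave 0. Leaving out a day gave 0 to 2 in WT#20D-17, 0 to 1 in Nox4-/- #5-8 and 0 to 2 in Nox4-/- #5-23. Directions that turned were all of values not called, except the Meg3 slope in Nox4-/- #5-23 (-1.17 to 0.07). Rtl1 against WT#20D-17 was -0.04 by DESeq2 (-0.32 to 2.06 when leaving out) and Mirg -1.39 to 0.83. Between the Nox4-/- lines the day block gave -0.07 for Rtl1, -1.04 for Rian and -0.01 for Mirg, and leaving out gave Meg3 -0.21 to 0.56, Rtl1 -0.63 to 1.84, Rian -1.74 to 0.68 and Mirg -0.49 to 0.6. With the line as unit they were Rtl1 -1.89 to 1.33, Rian -1.27 to 1.72 and Mirg -1.89 to 0. Rtl1 over the days was -0.2 without the replicate block (-0.73 to 4.01). The causes were not tested. Over all genes, WT#1-4 against the Nox4-/- lines gave 1905 calls and 1228 by quasi-likelihood, 1218 at an FDR of 0.001 and 4032 with both wild type lines. The Nox4-/- lines gave 740 and 256 to 2135, the days 3127 and 591 to 5139, day 14 5148 and 1732 to 6437, the line as unit 0 and up to 826, and the trend difference 933, 1734 on a linear scale and 6 in the 15 libraries. Trends within lines ranged from 102 to 4158 in WT#1-4 (1688 as reported), 847 to 3718 in WT#20D-17 (3317), 46 to 2643 in Nox4-/- #5-8 (869) and 89 to 2224 in Nox4-/- #5-23 (1822). Depth limits Mirg and, outside WT#20D-17, Dio3.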
